A study of Mus musculus with 4 samples.

Results

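Hepatic stellate cell markers are genes used to recognise the mesenchymal cell that lies between hepatocytes and the sinusoid wall. The 8 genes described here are Reln, Lrat, Ngfr, Rgs5, Cygb, Ecm1, Vipr1 and Gfap. These genes were taken by symbol, from a list chosen with earlier results of these data known. They had 18 probe sets, out of 45037 on the array that were not controls. A probe set counted as a member if the platform annotation gave it a single gene symbol from this list. Signals were compared on 4 arrays, 2 from p57+/+ and 2 from p57-/- C57BL/6 mouse embryos at embryonic day 17.5. The p57-/- embryos, labelled Kip2 -/-, lack the cell cycle inhibitor encoded by Cdkn1c. RNA came from hepatic mesothelial and submesothelial cells removed by surgery, so each sample was a mixture of cell types. The titles place 1 array of each genotype in experiment 1 and 1 in experiment 2, without saying what an experiment shared. The labels name no pooling, litter or sex, and p-values cover the spread among these arrays alone, part of which may be technical.

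Stellate cells store vitamin A as retinyl esters in lipid droplets, wrap the sinusoids as the pericytes of the liver, and turn into matrix-secreting myofibroblasts when activated. In the fetus they arise from mesenchyme beneath the liver surface, to which mesothelial cells contribute. Lrat makes the stored retinyl esters, Reln encodes a secreted glycoprotein, Ecm1 a secreted matrix protein and Cygb a globin. Ngfr encodes the p75 neurotrophin receptor, Vipr1 a receptor for vasoactive intestinal peptide, Rgs5 a regulator of G protein signalling and Gfap an intermediate filament protein best known from glia. Apart from Lrat in the liver, none of these genes is private to stellate cells: Rgs5 marks pericytes elsewhere, Ngfr and Gfap mark neural crest derivatives and glia, and Reln is also made by lymphatic endothelium. In bulk samples, fewer cells of a type and less RNA per cell cannot be told apart.

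The promoters of 3 members are shown because Ecm1 and Rgs5 had the largest changes upward and downward among the tested stellate probe sets, and Reln was Present on every array with a small change. Each runs from 250 bases before to 50 bases after the RefSeq start of the gene in GRCm38.p6, 5′ to 3′ on the gene's strand. Ecm1 lies at chr3:95739520-95739819 on the minus strand, Rgs5 at chr1:169655251-169655550 on the plus strand and Reln at chr5:22344656-22344955 on the minus strand. Capitals mark every match, on either strand, to any of 4 motifs. The first was TATAAA, the usual core of promoters with one fixed start. The second was CCAAT, which the factor NF-Y recognises. The third was GGGCGG, which factors of the Sp family recognise. The fourth was TGANTCA, the motif of AP-1 factors. No matches overlap.
Ecm1: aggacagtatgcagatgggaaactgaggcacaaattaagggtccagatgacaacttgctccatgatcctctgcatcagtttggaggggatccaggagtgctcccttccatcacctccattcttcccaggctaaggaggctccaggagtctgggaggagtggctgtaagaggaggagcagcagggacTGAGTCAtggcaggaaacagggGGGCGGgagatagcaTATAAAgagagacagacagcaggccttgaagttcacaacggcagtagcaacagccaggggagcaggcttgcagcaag
Rgs5: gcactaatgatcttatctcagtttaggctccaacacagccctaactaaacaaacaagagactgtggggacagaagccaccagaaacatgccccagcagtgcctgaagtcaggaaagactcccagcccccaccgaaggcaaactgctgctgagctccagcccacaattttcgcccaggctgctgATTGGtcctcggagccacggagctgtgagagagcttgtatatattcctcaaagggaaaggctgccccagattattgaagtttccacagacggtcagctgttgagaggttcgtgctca
Reln: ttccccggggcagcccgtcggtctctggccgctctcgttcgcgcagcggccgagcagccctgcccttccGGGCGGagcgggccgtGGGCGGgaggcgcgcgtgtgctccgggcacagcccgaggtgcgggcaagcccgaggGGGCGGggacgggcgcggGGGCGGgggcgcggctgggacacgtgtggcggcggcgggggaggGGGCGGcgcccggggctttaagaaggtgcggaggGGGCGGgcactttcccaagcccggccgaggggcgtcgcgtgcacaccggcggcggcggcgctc

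Over all 32851 promoters of this length, TATAAA was found in 13.6%, CCAAT in 37.4%, GGGCGG in 35.7% and TGANTCA in 7.81%. Ecm1 held 1 TATAAA, 27 to 22 bases before the start, 1 GGGCGG and 1 TGANTCA, and had 2 CpG dinucleotides. Rgs5 held 1 CCAAT, on the opposite strand, and had 6 CpG dinucleotides. Reln held 6 copies of GGGCGG and had 47 CpG dinucleotides, more than 98.6% of promoters, whose median was 7. These letters are descriptions of the sequence, and binding to them was not measured.

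The arrays were alike in quality. Between 48.5% and 50.1% of probe sets were called Present per array, and the lowest Present signal lay between 12.4 and 15.4. Cdkn1c gave 10255 and 9866 in p57+/+ against 7.79 and 7.28 in p57-/-, both of these Absent, so this signal matched the labelled genotypes. Xist, expressed from the inactive X chromosome, gave 86.7 on p57+/+ replicate 2 and 6412 to 12199 on the others. By this 1 gene the p57+/+ pair appeared to differ in sex, or in the mix of sexes if embryos were pooled. Erythroid genes were lower in p57-/- in both experiments for 9 of 9 tested genes. Over all tested genes, 26.7% were lower in both and 29.6% higher in both. Each list count below stands beside these shares. The summed erythroid signal was 104542 and 110435 in p57+/+ against 70306 and 94097 in p57-/-. The part of erythroid cells in the stellate values was not tested. Klf1, Rhd and Epb42, genes of red cell control and membrane, were at -0.60 (SE 0.18), -0.59 (SE 0.18) and -0.56 (SE 0.22), all log2 changes, p57-/- minus p57+/+, and none past the limma test given later. The 12 mesothelium genes were all tested, 5 being higher and 5 lower in both experiments. Of the higher genes, the transcription factor genes Wt1 and Bnc1 were at 0.64 (SE 0.21) and 0.60 (SE 0.18). The adhesion gene Alcam, also higher, was at 0.39 (SE 0.12). The 5 lower genes were Krt8 (-0.32), Msln (-0.27), Krt18 (-0.24), Lrrn4 (-0.18) and Upk3b (-0.06). Of 8 tested hepatocyte genes 1 was higher in both, Hnf4a at 0.13 (SE 0.12), and none lower. Their median log2 change was 0.21 in experiment 1 and -0.18 in experiment 2. The summed hepatocyte signal was 309717 and 382545 in p57+/+ against 362272 and 342577 in p57-/-, far above that of the erythroid list. The part of hepatocyte RNA in the stellate values was not tested.

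Detection split the stellate markers. Reln, Lrat, Ngfr, Rgs5 and Ecm1 were each detected with at least 1 probe set, while Cygb, Vipr1 and Gfap were Absent on all 4 arrays with every probe set. Of the 18 probe sets, 6 were Present on all 4 arrays, 10 were Absent on all 4, and 7, covering 5 genes, were Present on at least 2 arrays and entered the test. Among all probe sets, 40.0% were Absent on all 4 arrays and 50.6% entered the test. Absent means that the probe set's signal was not told apart from its mismatch probes. It does not show that the gene was off.

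**Figure D1:**
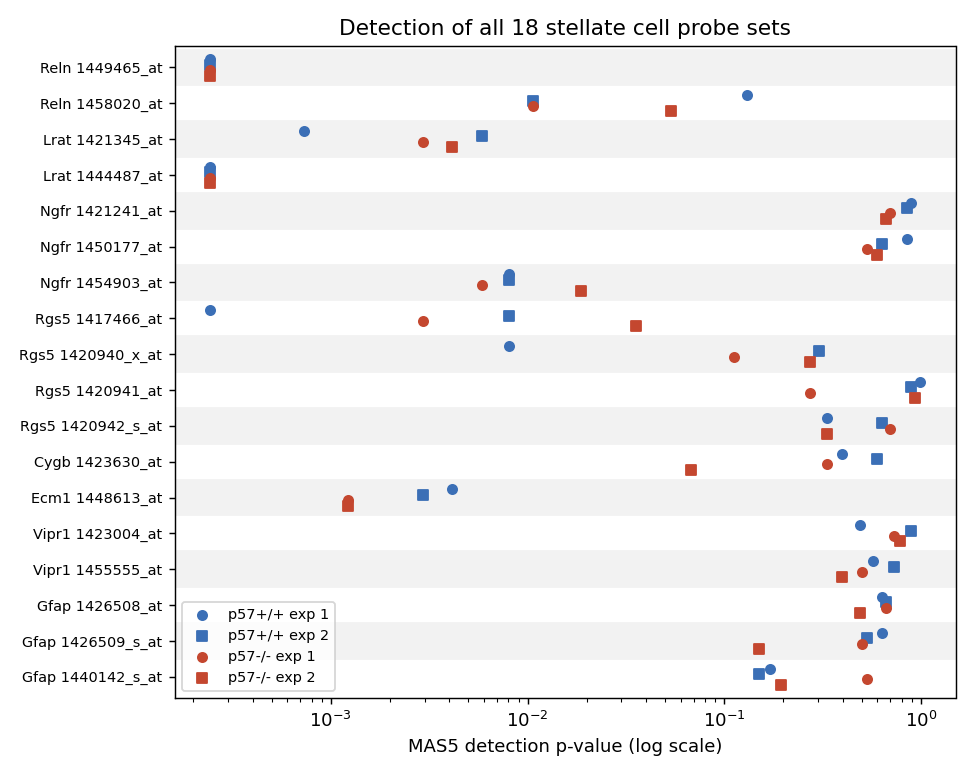
Detection p-value (log scale) of each of the 18 stellate cell probe sets on the 4 arrays; blue is p57+/+, red p57-/-, circles experiment 1 and squares experiment 2. Reln 1449465_at and Lrat 1444487_at sit at 2.44e-04 on every array, and the probe sets of Cygb, Vipr1 and Gfap lie at 0.0676 or above.

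The genotypes were compared with limma on log2 signals, with Benjamini-Hochberg adjustment over 22800 probe sets and a threshold of 0.05. No stellate probe set passed. One probe set passed in all, that of Cdkn1c, or 0.00439% of those tested. At an unadjusted limma p under 0.05, 895 of the 22800 tested probe sets were higher and 854 lower in p57-/-. Ecm1 alone, 1 of the 7 tested stellate probe sets, was among them. Of the 7, 3 were higher in p57-/- in both experiments, against 27.9% of all probe sets, and 2 were lower in both, against 26.8%. The other 2 went opposite ways, as 45.3% did. The same 3 had both p57-/- arrays above both p57+/+ arrays (19.8% of all probe sets), and the same 2 had both below (18.8%). The median log2 change of the 7 was 0.21, beside 0.01 over all tested probe sets, and it was -0.32 without p57+/+ replicate 1.

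**Figure D2:**
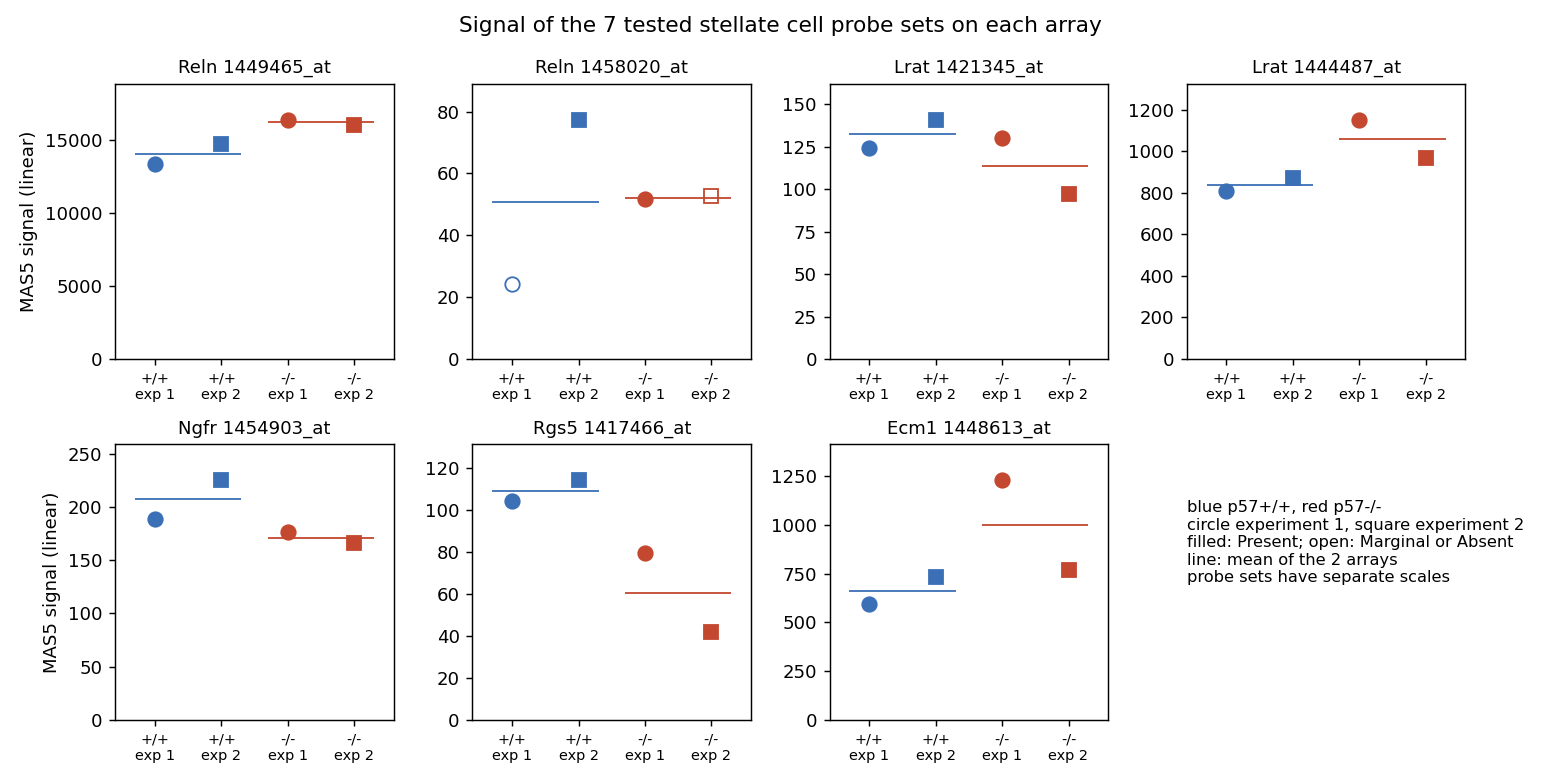
MAS5 signal (linear axis from 0, a separate scale for each probe set) of the 7 tested stellate cell probe sets; blue is p57+/+, red p57-/-, circles experiment 1, squares experiment 2, open symbols Marginal or Absent calls, and lines the mean of 2 arrays. Ecm1, Reln 1449465_at and Lrat 1444487_at have both p57-/- arrays above both p57+/+ arrays, and Rgs5 and Ngfr have both below.

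Among the secreted products, Reln was well detected and differed little between the genotypes. Reln encodes reelin, which signals through lipoprotein receptors. Probe set 1449465_at gave 13343 and 14714 in p57+/+ against 16376 and 15974 in p57-/-. The p57-/- arrays were both above the p57+/+ arrays, 1.23-fold in experiment 1 and 1.09-fold in experiment 2. The log2 change was 0.21 (SE 0.11, 95% interval -0.04 to 0.45), with a limma adjusted p of 0.679. The p57+/+ arrays differed from each other by 0.14 on the log2 scale, more than the change of 0.12 in experiment 2. The other Reln probe set, 1458020_at, gave 24.3 (Absent) and 77.4 in p57+/+ against 51.7 and 52.7 (Marginal) in p57-/-. Its p57-/- values lay between the p57+/+ values, and its log2 change of 0.27 (SE 0.61, 95% interval -1.11 to 1.64) had no stable direction: it was -0.57 without p57+/+ replicate 1.

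All 11 listed genes of reelin signalling were tested, and none passed. Of these, 4 were higher in p57-/- in both experiments and 1 lower, with a median log2 change of -0.02. Over all tested genes, 29.6% were higher in both and 26.7% lower in both. Vldlr, a reelin receptor gene, gave 592 and 594 in p57+/+ against 948 and 695 in p57-/-. Its log2 change was 0.45 (SE 0.19, adjusted p = 0.631), and all 6 of its tested probe sets were higher. Dab1, the adaptor that carries the reelin signal into the cell, gave 29.6 and 46.1 in p57+/+ and 15.8 and 37.4, both Absent, in p57-/-. The genotypes overlapped, and the log2 change was -0.60 (SE 0.71, adjusted p = 0.864). Dab1, the 1 gene of the list lower in both, entered the test through its Present calls in p57+/+ alone, which favours that direction. The second tested Dab1 probe set went the other way. Itga3, an integrin gene, was at 0.28 (SE 0.20). Reln is also a lymphatic endothelial product, and 2 of 9 tested endothelial genes were higher in both experiments and none lower, with a median log2 change of 0.42 in experiment 1 and -0.09 in experiment 2. Robo4 and Prox1, the endothelial genes higher in both, were at 0.30 (SE 0.25) and 0.09 (SE 0.16), and 1 of the 3 Prox1 probe sets had that direction. The summed endothelial signal was 9682 and 10990 in p57+/+ against 12485 and 9907 in p57-/-, and its part in the Reln values was not tested.

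Ecm1 had the largest upward change of the tested stellate probe sets, nearly all of it in experiment 1. Extracellular matrix protein 1 binds matrix proteins such as perlecan and is known in the liver for holding TGF-beta in its latent form. Probe set 1448613_at gave 592 and 733 in p57+/+ against 1228 and 769 in p57-/-. Only p57-/- replicate 1 stood well above the rest. The fold was 2.08 in experiment 1 and 1.05 in experiment 2. The mean signal was 662 ± 99.7 in p57+/+ against 999 ± 325 in p57-/- (SD, n = 2). The log2 change was 0.56 (SE 0.23, 95% interval 0.05 to 1.07), with an unadjusted p of 0.0344 and a limma adjusted p of 0.628. Without p57-/- replicate 2 the change was 0.90 (adjusted p = 0.0598), and without p57-/- replicate 1 it was 0.22 (adjusted p = 0.944). Over the alternatives run, its adjusted p ranged from 0.0598 to 0.944.

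The 9 listed partners of ECM1 and genes of latent TGF-beta were all tested, and none passed. A single one, Thbs1, was higher in both experiments and 0 were lower in both, around a median log2 change of 0.08. Thbs1 encodes thrombospondin 1, an activator of latent TGF-beta. It gave 1112 and 1297 in p57+/+ against 2360 and 1311 in p57-/-, giving a log2 change of 1.09 in experiment 1 and 0.02 in experiment 2 (adjusted p = 0.642). Like Ecm1, it was high on p57-/- replicate 1 alone. By the root mean square difference of mean-centred log2 signals over the 4 arrays, the genes nearest to Ecm1 were Clec2d (0.0390), Echdc2 (0.0410) and Zbtb16 (0.0451). Clec2d gave 478 and 607 in p57+/+ against 946 and 627 in p57-/-. Of 11655 genes compared, 368 were within 0.2 of Ecm1, so this pattern was common on these arrays.

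Lrat, the enzyme gene of vitamin A storage, had probe sets whose fitted changes differed in sign, with overlapping intervals and neither past the threshold. Probe set 1444487_at gave 809 and 871 in p57+/+ against 1153 and 970 in p57-/-. Both p57-/- arrays were higher, 1.43-fold in experiment 1 and 1.11-fold in experiment 2, and the log2 change was 0.33 (SE 0.16, 95% interval -0.02 to 0.69, limma adjusted p = 0.653). Probe set 1421345_at gave 124 and 141 in p57+/+ against 130 and 97.4 in p57-/-. Here the genotypes overlapped, with a log2 change of 0.07 in experiment 1 and -0.53 in experiment 2, and -0.23 (SE 0.30, 95% interval -0.91 to 0.45) in the fit. Which transcripts each probe set reads was not analysed here.

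Of 12 listed genes of retinoid uptake, storage and response, 8 were tested, and none passed. Stra6, Cyp26a1 and Cyp26b1 were Absent on all 4 arrays. There were 2 higher and 2 lower in both experiments, around a median log2 change of 0.09. Dhrs3, which reduces retinaldehyde back to retinol, gave 1274 and 1273 in p57+/+ against 1686 and 1534 in p57-/-, giving a log2 change of 0.34 (SE 0.14, adjusted p = 0.631). Rdh10 works in the opposite direction, oxidising retinol. It gave 956 and 771 in p57+/+ against 661 and 767 in p57-/-, giving a log2 change of -0.27 (SE 0.17). Aldh1a1, a retinaldehyde dehydrogenase gene, gave 200 and 229 in p57+/+ against 193 and 96.2 in p57-/-, with -0.05 in experiment 1 and -1.25 in experiment 2. Rdh10 was separated by 771 against 767 only.

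Rgs5 had the largest downward change of the 7 tested stellate probe sets, most of it in experiment 2. The protein speeds the switching off of G protein signals in mural cells. Probe set 1417466_at gave 104 and 114 in p57+/+ against 79.3 and 41.8 in p57-/-. All 4 calls were Present, and the p57-/- arrays were the 2 lowest. The fold was 0.763 in experiment 1 and 0.368 in experiment 2. The mean was 109 ± 6.97 in p57+/+ against 60.6 ± 26.5 in p57-/- (SD, n = 2), and the log2 change was -0.92 (SE 0.42, 95% interval -1.85 to 0.02, limma adjusted p = 0.643). It was -1.38 without p57-/- replicate 1 and -0.46 without p57-/- replicate 2. The 3 other Rgs5 probe sets did not enter the test. Of these, 1420940_x_at was Present on p57+/+ replicate 1, at 66.3, and Absent at 23.1, 24.3 and 27.3 on the others. Probe sets 1420941_at and 1420942_s_at were Absent on all 4 arrays, with signals from 1.63 to 29.6, and neither separated the genotypes. The suffixes mark probe sets that may cross-hybridise (x) or match several transcripts (s).

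Pericyte and vascular smooth muscle genes went in both directions. Of 13 listed, 8 were tested and Higd1b and Cnn1 were Absent on all 4 arrays. There were 3 higher in both experiments and 2 lower, none past the threshold. The median change of the tested genes on the log2 scale was 0.48 in experiment 1 and -0.11 in experiment 2. The 3 mixed genes, Mcam, Tagln and Acta2, were at 0.75, 0.40 and 0.05 in experiment 1. In experiment 2 they were at -0.20, -0.61 and -0.63. The summed signal of the list was 5785 and 5647 in p57+/+ against 8033 and 5511 in p57-/-. Ndufa4l2, a mitochondrial subunit gene induced by hypoxia and expressed in pericytes, gave 358 (Marginal) and 318 in p57+/+ against 730 and 527 in p57-/-, giving a log2 change of 0.88 (SE 0.21, adjusted p = 0.519). Kcnj8, which encodes the pore of a potassium channel of pericytes, gave 397 and 309 against 913 and 343, and its genotypes overlapped. Anpep, an aminopeptidase gene, was at -0.57 (SE 0.26), with 209 and 180 in p57+/+ against 132 and 130 in p57-/-. The part of pericyte content in the Rgs5 values was not tested.

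The R4 relatives of Rgs5 act on the same kind of G protein. Of 8 listed, 5 were tested, and none passed. Rgs1 was mixed, and the other 4 were higher in p57-/- in both experiments, where 29.6% of all tested genes were. The median log2 change of the 5 was 0.37. Rgs4 and Rgs13 were Absent on all 4 arrays. Rgs18, a gene of platelets and their precursors, gave 931 and 786 in p57+/+ against 1348 and 981 in p57-/-, giving a log2 change of 0.43 (SE 0.19, adjusted p = 0.642). Rgs16 was at 0.40 (SE 0.20) and Rgs2 at 0.21 (SE 0.16), the latter with 2 of its 3 tested probe sets in that direction. The genes nearest to Rgs5 in pattern over the 4 arrays were Etnppl (0.0721), Uggt2 (0.0998) and Srpx2 (0.10). Uggt2 was Absent on both p57-/- arrays, so it entered the test through p57+/+ alone. Etnppl gave 295 and 363 in p57+/+ against 245 and 135 in p57-/-, and 32 of 11655 genes were within 0.2 of Rgs5.

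Among the receptors, Ngfr was detected with 1 of its 3 probe sets. Probe set 1454903_at gave 189 and 225 in p57+/+ against 176 and 166 in p57-/-, Present throughout. Both p57-/- arrays were below both p57+/+ arrays, with log2 changes of -0.10 in experiment 1 and -0.44 in experiment 2, beside a difference of 0.25 between the p57+/+ arrays. The log2 change was -0.27 (SE 0.24, 95% interval -0.81 to 0.28, limma adjusted p = 0.808). The other probe sets, 1421241_at and 1450177_at, were Absent on all 4 arrays, with detection p-values of 0.534 to 0.888.

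Of 12 listed neurotrophins and receptors, 7 were tested, 3 higher and 1 lower in both experiments and none past the threshold, around a median log2 change of -0.00. Bdnf was Absent on all 4 arrays. Ntf5, the gene of neurotrophin 4, which binds p75, gave 79.9 and 127 in p57+/+. Both p57-/- arrays were Absent, at 40.8 and 48.9. Against those undetected signals Ntf5 was 2.25-fold lower, a log2 change of -1.17 (SE 0.42, limma adjusted p = 0.580). The fold takes no account of the spread among arrays. Ntf5, the 1 gene of the list lower in both, met the filter on Present calls through p57+/+ alone. That filter favours a lower p57-/- value, so nothing is drawn from its direction. Ntrk3, the receptor gene for neurotrophin 3, gave 62.5 and 92.2 against 123 and 125, a log2 change of 0.71 (SE 0.34), but its other tested probe set went the opposite way. Sort1, a co-receptor gene, was at 0.17 (SE 0.16). The neural crest genes Sox10, Foxd3 and Cdh19 were Absent on all 4 arrays. The 2 tested genes of the neural crest and Schwann cell list, both higher in both experiments, were Erbb3, at 0.54 (SE 0.16, adjusted p = 0.549), and Mbp, at 0.42 (SE 0.16, adjusted p = 0.603), which had that direction with 2 of its 3 tested probe sets.

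Vipr1 was Absent on all 4 arrays with both probe sets. Probe set 1423004_at gave 27.8 and 3.72 in p57+/+ against 2.10 and 8.92 in p57-/-, and 1455555_at gave 40.9 and 10.3 against 16.3 and 69.1. The lowest of the 8 detection p-values was 0.399. No fold is given between values that were not detected on either side. Of the 9 other genes of the VIP and PACAP system, Vip, Adcyap1, Adcyap1r1, Vipr2 and Sctr were Absent on all 4 arrays too, and the 3 tested were Gnas, Ramp1 and Ramp2. Ramp1, a receptor accessory protein gene, was the one of these higher in both experiments, at 0.20 (SE 0.15), none was lower in both, and the median was -0.03.

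Gfap and Cygb were not detected either. The 3 Gfap probe sets had detection p-values of 0.150 to 0.666. Probe set 1426508_at gave 20.0 and 37.4 in p57+/+ against 12.8 and 19.4 in p57-/-, and 1440142_s_at gave 61.8 and 68.8 against 20.9 and 38.4. The third, 1426509_s_at, went the other way, with 5.39 and 7.06 against 23.3 and 42.5. All these signals were Absent, so no direction is read from them. Cygb, a globin gene that marks quiescent stellate cells in the adult liver, gave 26.3 and 5.86 in p57+/+ against 14.0 and 65.5 in p57-/-. Its detection p-value was lowest on p57-/- replicate 2, at 0.0676, and 0.334 to 0.601 on the others. The related globin genes Mb and Ngb, of muscle and neurons, were Absent on all 4 arrays.

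Desmin, the filament protein most used to stain rodent stellate cells, was not detected: Des was Absent on all 4 arrays, as were 5 more of the 10 listed intermediate filament genes, Synm, Prph, Nefl, Nefm and Nefh. The 4 tested were 1 higher and 1 lower in both experiments and 2 mixed, none past the threshold, with a median log2 change of -0.25. Vim, the general mesenchymal filament gene, gave 8456 and 7145 in p57+/+ against 10136 and 9190 in p57-/-, giving a log2 change of 0.31 (SE 0.13, adjusted p = 0.626). Lmna, a nuclear lamin gene, was at -0.32 (SE 0.17).

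Of 18 listed other genes of stellate cells, 15 were tested, and none passed. Of these, 10 were higher in both experiments and 1, Tcf21, lower, around a median log2 change of 0.18, while 29.6% of all tested genes were higher in both and 26.7% lower in both. Experiment 1 alone gave a median of 0.35 and experiment 2 one of 0.13. The list was drawn up with a higher median of stellate genes in these data known, so its direction is not independent evidence. Sod3 was Absent on all 4 arrays, like Des. The summed signal was 14591 and 14477 in p57+/+ against 18585 and 15730 in p57-/-, so p57-/- replicate 1 was again the highest array. The pericyte and endothelial lists too had higher medians in experiment 1, 0.48 and 0.42, and the erythroid list lay at -0.74 there, on arrays scaled to one target. Their part in the values of the other stellate genes was not tested.

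Hhip, which encodes a Hedgehog-binding surface protein, gave 438 and 471 in p57+/+ against 837 and 785 in p57-/-. Its change was alike in both experiments, 0.94 and 0.74 on the log2 scale (fit 0.84, SE 0.16, adjusted p = 0.519), in contrast to Ecm1. Steap4, a metalloreductase gene, gave 573 and 363 against 982 and 617, with 0.78 and 0.76. Hgf, the hepatocyte growth factor gene, gave 191 and 58.5 (Absent) against 223 and 124. Its genotypes overlapped, and 2 of its 3 tested probe sets were higher. Portal fibroblast genes, the neighbouring mesenchymal type, had a median of -0.00 over 5 tested genes, of which 2 were higher in both experiments and none lower, and Thy1 and Col15a1 were Absent on all 4 arrays. The 2 were Entpd2 at 0.52 (SE 0.31) and Cd34 at 0.09 (SE 0.16).

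**Figure D3:**
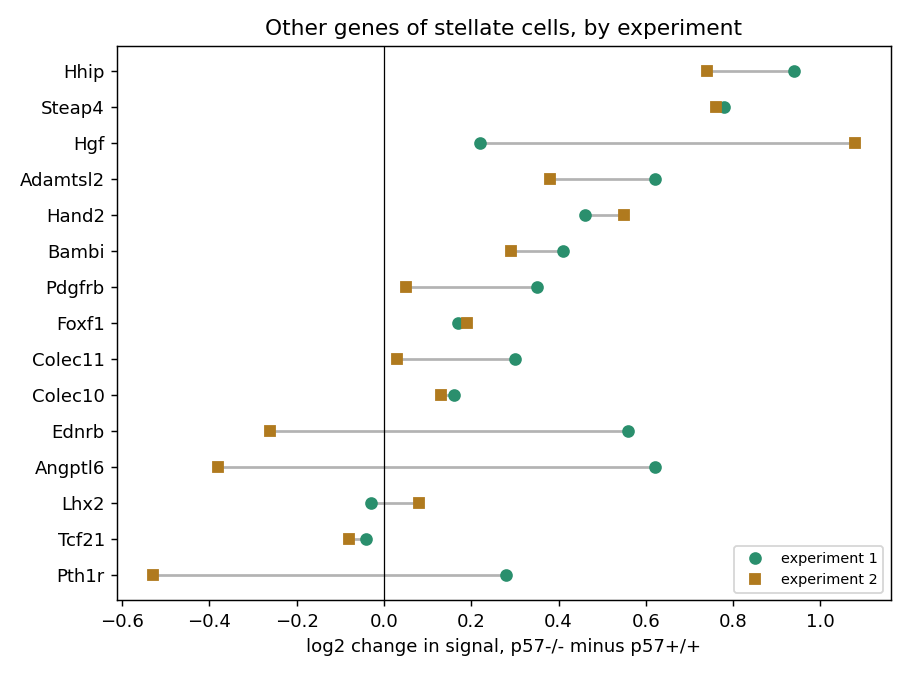
Log2 change in signal, p57-/- minus p57+/+, of the 15 tested other stellate cell genes in experiment 1 (circles) and experiment 2 (squares), 1 array per genotype in each. Hhip and Steap4 lie at 0.74 or above in both experiments, while Ednrb, Angptl6, Pth1r and Lhx2 change sign.

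In 7 of 7 tested probe sets the log2 change was higher in experiment 1 than in experiment 2, as it was in 53.0% of all tested probe sets. This was not particular to stellate genes. The medians of the hepatocyte, endothelial, pericyte and portal fibroblast lists were 0.21, 0.42, 0.48 and 0.15 in experiment 1. In experiment 2 they were -0.18, -0.09, -0.11 and 0.03. The erythroid and neurotrophin lists went the other way. The 7 share their arrays and some their gene. In experiment 1, 5 of the 7 were higher in p57-/-, and in experiment 2, 3 were. With 1 array per genotype in an experiment the difference between experiments could not be tested.

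**Figure D4:**
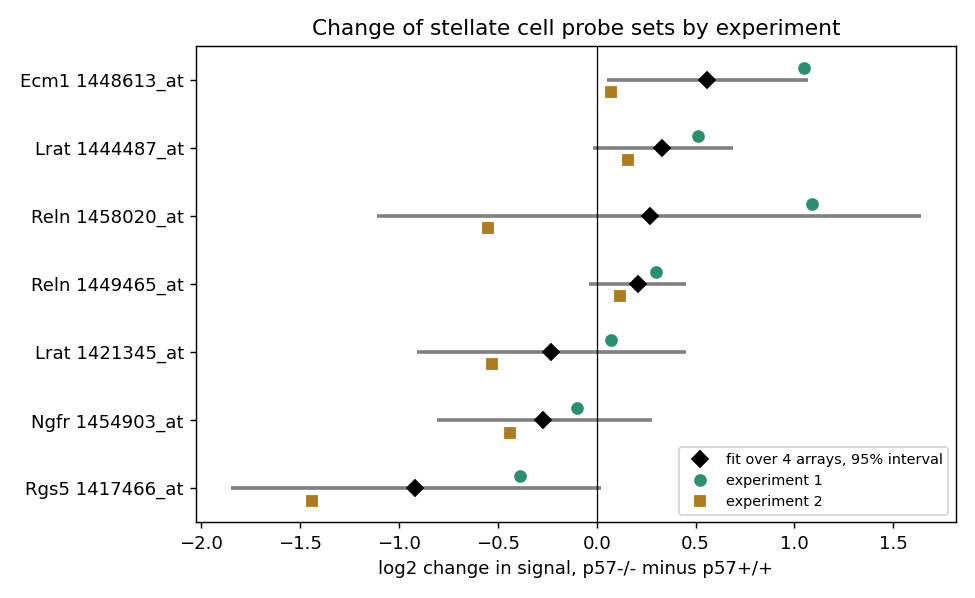
Log2 change in signal, p57-/- minus p57+/+, of the 7 tested stellate cell probe sets: diamonds and bars are the limma fit over 4 arrays with its 95% interval, circles experiment 1 and squares experiment 2. The circle lies to the right of the square in every probe set, from Rgs5 (-0.39 and -1.44) to Ecm1 (1.05 and 0.07).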

How the data were processed

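The authors deposited, for each of 4 single-colour Affymetrix arrays, the MAS5 signal intensity of 45101 probe sets on a linear scale, per the file headers. The deposited files also give a detection p-value and a Present, Marginal or Absent call. The labelled RNA copies started from 250 ng of RNA, by priming at the 3' end, per the labels' protocols. The version of MAS5 is not stated in the labels. The mean after trimming 2% at each end was 500.003 on every array, so each had been scaled to one target, which hides a change in total RNA. The number of arrays limits the precision.

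Signals were log2 transformed with no pseudocount. The 64 controls were left out, and probe sets with at least 2 Present calls among the 4 arrays, in either genotype, were tested. The test was limma 3.58.1 in R 4.3.3 (lmFit, eBayes with a variance trend, no block), two-sided, with Benjamini-Hochberg adjustment over 22800 probe sets. Changes are p57-/- minus p57+/+. A probe set Absent on both arrays of a genotype has only a bound there: the brighter genotype's mean log2 signal against, per array, the lowest Present signal or its own signal if higher.

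For lists, the probe set with the highest mean signal stood for each of 11656 tested genes. Symbols came from the platform annotation (34945 probe sets with 1 symbol, 932 with several, 9160 with none), and all 8 stellate genes were in the RefSeq table of GRCm38.p6. Promoters, also from RefSeq, were found for 7 of the 8. The members and lists were chosen with earlier results of these data known. Named genes were all stellate probe sets, Cdkn1c, per list the 3 tested genes of largest change with one direction in both experiments, and the 3 genes nearest in pattern to each stellate gene spanning at least 1 on the log2 scale. Xist, the mesothelium genes lower in both experiments, and the genes named because they were Absent or changed sign were named after their values were seen.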

Additional observations from a re-analysis of the deposited data

How the results depend on the processing

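No stellate probe set passed the threshold in limma in any alternative run: the experiment number as a replicate block, each array left out, no variance trend, quantile normalization, no filter (which brought all 18 probe sets into the test, lowest adjusted p = 0.779), Present on all 4 arrays, log2(signal + 16), or the deposited value table in place of the array files, which held the same values within 5e-04%. The lowest adjusted p of a stellate probe set was 0.0598, for Ecm1 without p57-/- replicate 2. Directions held except for Reln 1458020_at, whose change ranged from -0.57 (without p57+/+ replicate 1) to 1.10 (without p57+/+ replicate 2). Most of this was fixed in advance. For the 5 probe sets whose genotypes did not overlap, leaving out 1 array could not change the direction. The block, the variance trend, the filters and the deposited value table leave the log2 change of a probe set as it was. Lrat 1421345_at, whose genotypes overlapped, was at -0.02 without p57-/- replicate 2. Over all probe sets, the count past the threshold was 0 higher and 1 lower. With the replicate block it was 10 and 20, with Present on all 4 arrays it was 0 and 0, since Cdkn1c then left the test, and with an array left out it ranged from 1 to 98 higher and from 1 to 123 lower. Without p57-/- replicate 2 it was 98 and 123, without p57-/- replicate 1 it was 1 and 11, without p57+/+ replicate 1 it was 4 and 1, and without p57+/+ replicate 2 it was 6 and 3. A lone array was assumed to vary like the other group. The experiment numbers did not visibly pair the arrays: the deviations of same-numbered arrays correlated at 0.0046 across probe sets. The median of the stellate probe sets was -0.01 with Present on all 4 arrays, where Reln 1458020_at left the test. Over the probe sets tested in the first place, the counts of 3 higher and 2 lower in both experiments were the same after quantile normalization. The other runs gave the same counts but could not have changed them. Adding 16 keeps the order of any 2 signals, and the deposited value table held the same values. The 6 Present on all 4 arrays lacked only Reln 1458020_at, which went opposite ways in the experiments.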
